A study of Mus musculus with 6 samples.

Results

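Hlf, Mecom, Mycn, Ndn, Gata2, Prdm16, Mllt3, Lmo2, Erg and Etv6 encode transcriptional regulators known for their part in blood stem cells, and their signals were described here in LSK cells of mice labelled Gfi1 knockout and wild type. Members were all probe sets (groups of short probes read as 1 signal) that the array's annotation gives to 1 gene alone, where that gene is among the 10. There were 21 such probe sets of 22626 on the array, covering 9 of the 10 genes, while Prdm16 was not analysed here because no probe set was named for it alone. The number of probe sets was 8 for Ndn, 3 for Mycn, 2 each for Hlf, Mecom and Gata2, and 1 each for Mllt3, Lmo2, Erg and Etv6.

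LSK cells are the lineage-negative, Sca-1-positive, Kit-positive cells of mouse bone marrow, a fraction enriched in stem cells and early progenitors. Gfi1 encodes a zinc finger repressor of transcription that restrains blood stem cell division and guides granulocyte and lymphocyte development. There were 6 single-colour arrays in all, 3 of cells labelled Gfi1 knockout and 3 of cells labelled Gfi1 wild type, with sample numbers 5, 7 and 8 in each group. The labels describe both groups as sorted LSK cells and state no treatment. The age and strain of the mice, the allele that disrupts Gfi1 and whether a sample pooled several mice are stated nowhere in the sources used here, so the p-values cover only the spread between these arrays, which may be partly technical.

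Blood stem cells are kept undifferentiated by a small network of DNA-binding factors that act together on shared regulatory regions. Gata2, the adaptor Lmo2 and the ETS factor Erg form part of a set of factors, the heptad, that occupies such regions with Fli1, Lyl1, Runx1 and Tal1. Hlf is a PAR-domain basic leucine zipper factor, Mecom and Prdm16 are related PR-domain zinc finger factors, Mycn is a Myc family factor that drives growth and division, and Ndn encodes necdin, a growth suppressor of the MAGE family linked to stem cell quiescence. Mllt3, a reader of acylated histones that works with transcription elongation complexes, and Etv6, an ETS family repressor, are both needed to maintain adult stem cells.

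The promoters of Hlf, Ndn and Mycn are shown because these were the genes with a probe set that passed the test described further on. Each sequence runs from 250 bases before to 50 bases after the annotated start site, from RefSeq on the GRCm38.p6 build, and is written 5′ to 3′ on the gene's strand. The capitals mark the letters AATC or their reverse complement GATT, the core that Gfi1 recognises.
Hlf (chr11:90390868-90391167, minus strand): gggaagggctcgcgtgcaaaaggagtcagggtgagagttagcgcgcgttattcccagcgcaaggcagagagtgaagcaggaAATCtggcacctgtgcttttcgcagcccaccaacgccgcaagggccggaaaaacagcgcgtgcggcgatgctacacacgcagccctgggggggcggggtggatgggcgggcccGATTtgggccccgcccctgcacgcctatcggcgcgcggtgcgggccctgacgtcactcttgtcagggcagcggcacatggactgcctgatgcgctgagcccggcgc
Ndn (chr7:62348027-62348326, plus strand): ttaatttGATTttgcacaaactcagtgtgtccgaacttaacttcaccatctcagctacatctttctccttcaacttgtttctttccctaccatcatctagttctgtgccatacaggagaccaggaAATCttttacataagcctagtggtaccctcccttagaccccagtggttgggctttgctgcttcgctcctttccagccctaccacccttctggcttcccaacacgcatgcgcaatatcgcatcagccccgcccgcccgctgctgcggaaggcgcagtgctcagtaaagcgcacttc
Mycn (chr12:12941787-12942086, minus strand): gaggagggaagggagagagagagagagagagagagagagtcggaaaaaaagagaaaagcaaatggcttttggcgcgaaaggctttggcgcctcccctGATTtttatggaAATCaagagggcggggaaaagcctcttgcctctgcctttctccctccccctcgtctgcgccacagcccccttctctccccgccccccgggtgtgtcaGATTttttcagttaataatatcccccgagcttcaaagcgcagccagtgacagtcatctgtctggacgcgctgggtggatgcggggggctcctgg
The Hlf and Ndn windows each held 2 matches to AATC on either strand, and the Mycn window held 3. Of 32851 promoter windows of the same length, 73.1% held at least 1 match, so a match is what most promoters show. The longer string AAATCA, which contains AATC and was also searched on both strands, had 0 matches in the Hlf window, 1 in the Ndn window and 2 in the Mycn window, against 14.0% of all windows with a match. GATA, the core read by Gata2, had 1 match in each of the 3 windows and was present in 57.9% of all windows. GGAA, the core read by ETS factors such as Erg and Etv6, had 4 matches in the Hlf window, 5 in the Ndn window and 4 in the Mycn window, and was present in 96.0% of all windows. Among the other members with a window, AAATCA had 1 match for Etv6 and 1 in a window of Mecom. It had 0 in the other Mecom window and in the windows of Erg, Gata2, Mllt3 and Prdm16. These matches describe letters in a window and are not measured binding sites.

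The values are the deposited MAS5 signals, 1 linear intensity per probe set and array in arbitrary units, which cannot be compared as levels between probe sets. Median signals of the arrays ran from 286 to 335. The brightest of 27 Bacillus control probe sets, which match no mouse transcript, read 100.2 to 162 over the arrays and was taken as the level that a signal had to exceed. Gfi1 itself checks the labels. Its 1 probe set, 1417679_at, read 692, 1163 and 1737 on knockout-labelled arrays 5, 7 and 8, against 632, 608 and 723 on wild-type arrays 5, 7 and 8, so the targeted gene was not lower under the knockout label. The sources used here do not say if its probes fall inside the deleted stretch, and outside that stretch they would check nothing. The groups are therefore named by their labels, and every direction below rests on them.

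Hlf and Ndn fell in knockout-labelled LSK cells, Mycn fell with less certainty, and no member was called higher. Differences are knockout-labelled minus wild type in log2(signal + 16), each given ± its standard error (SE) from a limma fit over all 6 arrays, and a change was called at a Benjamini-Hochberg adjusted p under 0.05. Of the 21 member probe sets, 15 were among the 13575 brightest of the array that were tested, and 6 of the 15 were called lower, while 2.19% of all tested probe sets were called lower. The 6 belonged to 3 of the 8 genes with a tested probe set, 3 to Ndn, 2 to Hlf and 1 to Mycn. The Mycn call was lost whichever array was left out. Probe sets named for 1 gene are not independent, and which transcripts each of them reads was not checked. The members were also chosen with earlier results of these data known, so their shares and medians beside the whole array are no independent test. The number called higher was 0 (0 also at an unadjusted p under 0.05 in limma), against 1.44% of all tested probe sets. Over all 21 members the difference lay below 0 for 19, with a median of -0.73, whereas the median over all tested probe sets was -0.01. With 1 probe set a gene, the brightest, 7 of 9 lay below 0 and the median was -0.52. In bulk samples of a sorted mixture, fewer cells of a type and less RNA per cell cannot be told apart.

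**Figure D1:**
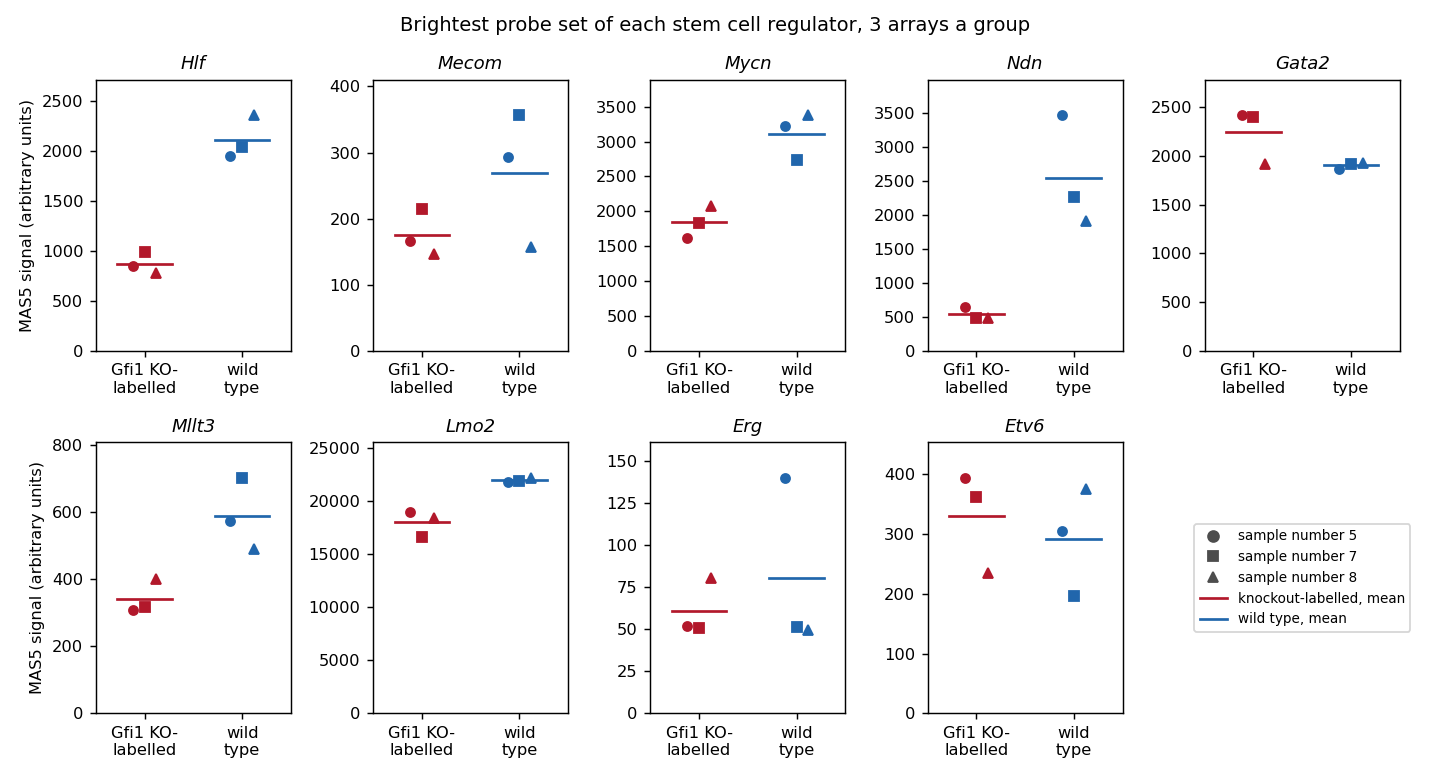
MAS5 signal in arbitrary units (y axis, from 0, scaled for each gene) on the 3 knockout-labelled (red, left) and 3 wild-type (blue, right) arrays for the brightest probe set of each of 9 genes. Point shapes give the sample number and bars the group mean. For Hlf, Mycn, Ndn, Mllt3 and Lmo2 every knockout-labelled point lies below every wild-type point, while for Mecom, Gata2, Erg and Etv6 the groups overlap. Of all tested probe sets 12.1% part the groups in this direction.

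Hlf, whose protein keeps stem cells from entering lineage programmes, fell on both of its probe sets. Probe set 1434735_at read 851, 991 and 772 on knockout-labelled arrays 5, 7 and 8, against 1942, 2032 and 2355 on wild-type arrays 5, 7 and 8. The highest knockout-labelled array stood below the lowest wild-type array by a wide gap. The group means were 872 ± 111 in knockout-labelled cells and 2110 ± 217 in wild-type cells (SD, n = 3 each), a ratio of 0.413. The difference was -1.26 ± 0.19 (SE), with a limma adjusted p of 0.00268. The other probe set, 1434736_at, read 498, 501 and 511 on knockout-labelled arrays 5, 7 and 8, against 1201, 989 and 1325 on wild-type arrays 5, 7 and 8. Its 3 knockout-labelled values were nearly equal, with an SD of 6.36 around a mean of 503, and the wild-type values spread more, with an SD of 170 around a mean of 1172. It fell by 1.18 ± 0.20 (SE; limma adjusted p = 0.00673). Both Hlf probe sets thus gave differences that lay within 1 SE of each other, and both passed with any 1 array left out.

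Ndn showed the deepest fall of the members, on 3 of its 8 probe sets. Probe set 1435382_at, its brightest, read 651, 488 and 484 on knockout-labelled arrays 5, 7 and 8, against 3468, 2256 and 1913 on wild-type arrays 5, 7 and 8. Every knockout-labelled value lay below every wild-type value, and in each group the array numbered 5 was the brightest. The means were 541 ± 95.0 in knockout-labelled cells and 2546 ± 817 in wild-type cells (SD, n = 3 each), a ratio of 0.212, and the difference was -2.17 ± 0.24 (SE; limma adjusted p = 0.000446). Probe set 1435383_x_at averaged 532 ± 132 in knockout-labelled cells and 2417 ± 583 in wild-type cells (SD, n = 3 each), and it fell by 2.15 ± 0.23 (SE; limma adjusted p = 0.000446). Probe set 1455792_x_at averaged 365 ± 133 in knockout-labelled cells and 1926 ± 575 in wild-type cells (SD, n = 3 each), and it fell by 2.37 ± 0.27 (SE; limma adjusted p = 0.000523). Names ending in _x_at mark probe sets whose probes may also match other transcripts. They made up 5 of the 8 Ndn probe sets and 2 of the 3 that were called. The 3 called probe sets passed with any 1 array left out.

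The remaining Ndn probe sets were dimmer or more variable. Probe set 1437853_x_at read 655, 444 and 288 on knockout-labelled arrays 5, 7 and 8, against 1887, 754 and 816 on wild-type arrays 5, 7 and 8. The groups did not overlap, but the arrays of each group were spread widely and the difference of -1.23 ± 0.35 (SE) was not called (limma adjusted p = 0.0698). It was called with the sample number as a block (limma adjusted p = 0.0134), which brought the member calls to 7, against 3.53% of all tested probe sets called lower in that fit. Probe set 1438939_x_at stood at -0.62 ± 0.34 (SE) and its groups overlapped (limma adjusted p = 0.342). The other 3 were below the brightness filter and were not tested. Of these, 1415923_at read 144, 64.6 and 115 on knockout-labelled arrays 5, 7 and 8, against 308, 248 and 220 on wild-type arrays 5, 7 and 8, without overlap, and exceeded the control level on 1 knockout-labelled and 3 wild-type arrays. The last pair, 1438978_x_at and 1456575_at, had differences of -0.73 and -0.07 with overlapping groups. Among the 8 probe sets the size of the difference therefore ran from -2.37 to -0.07. The dimmest 4 read between 64.6 and 326, from below the control level to above it. Of these, 1438939_x_at, 1415923_at and 1438978_x_at exceeded it on all 3 wild-type arrays, and on 2, 1 and 1 of the knockout-labelled arrays. Probe set 1456575_at exceeded it on 2 arrays of each group.

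**Figure D2:**
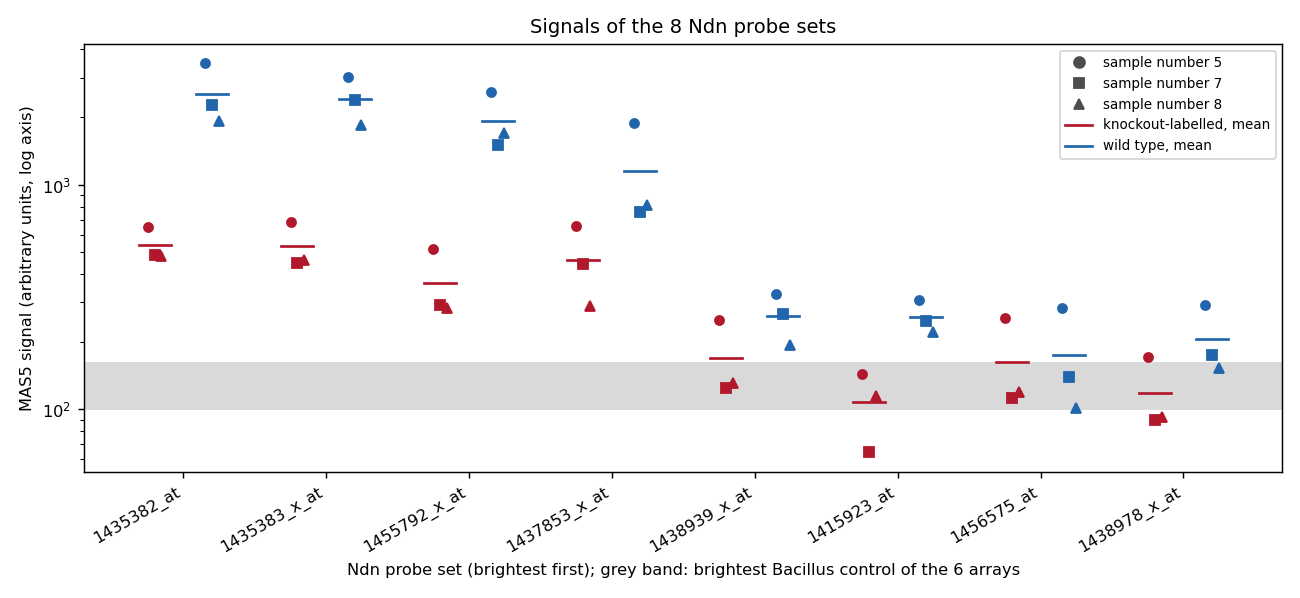
MAS5 signal in arbitrary units (log y axis) of the 8 Ndn probe sets (x axis, brightest first), with knockout-labelled arrays in red on the left and wild-type arrays in blue on the right of each pair. Shapes give the sample number, bars the group mean, and the grey band the range of the brightest Bacillus control over the 6 arrays (100.2 to 162). The first 3 probe sets part the groups by about 2 log2 units or more, and the last 4 (64.6 to 326) run from below the band to above it.

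Mycn fell by a smaller amount, on 1 of its 3 probe sets. Probe set 1417155_at read 1617, 1838 and 2075 on knockout-labelled arrays 5, 7 and 8, against 3219, 2729 and 3379 on wild-type arrays 5, 7 and 8. The groups did not overlap. The means were 1844 ± 229 in knockout-labelled cells and 3109 ± 339 in wild-type cells (SD, n = 3 each), and the difference was -0.75 ± 0.18 (SE; limma adjusted p = 0.0339). This call was lost whichever array was left out, with adjusted p-values of 0.0630 to 0.104, and it was lost when arrays were centred on their medians (0.0972), when all probe sets were tested (0.0618) and when eBayes was run without trend (0.0863). The dimmer 1425923_at read 94.7, 90.8 and 271 on knockout-labelled arrays 5, 7 and 8, against 362, 365 and 208 on wild-type arrays 5, 7 and 8. Knockout-labelled array 8 lay above wild-type array 8, and the difference of -1.08 ± 0.40 (SE) was not called (limma adjusted p = 0.149). This probe set exceeded the control level on 1 knockout-labelled and 3 wild-type arrays, so the size of its difference is uncertain. The third, 1425922_a_at, was not tested, and exceeded the control level on 1 of the 6 arrays.

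The members of the stem cell heptad showed no called change. Lmo2, the bridging adaptor of the complex, read on 1454086_a_at 18977, 16618 and 18447 on knockout-labelled arrays 5, 7 and 8, against 21849, 21944 and 22231 on wild-type arrays 5, 7 and 8. The groups did not overlap, as for 12.1% of all tested probe sets with the knockout-labelled arrays lower. The difference was small, -0.29 ± 0.13 (SE; limma adjusted p = 0.216). Gata2, which sustains stem cell survival and self-renewal, had 1 bright and 1 dim probe set, with differences of opposite sign. The bright 1450333_a_at read 2419, 2397 and 1918 on knockout-labelled arrays 5, 7 and 8, against 1867, 1920 and 1925 on wild-type arrays 5, 7 and 8, with a difference of 0.23 ± 0.17 (SE; limma adjusted p = 0.519). Knockout-labelled arrays 5 and 7 were the highest of the 6, and array 8 lay among the wild-type values. The dim 1428816_a_at read 136, 453 and 489 on knockout-labelled arrays 5, 7 and 8, against 341, 431 and 479 on wild-type arrays 5, 7 and 8. Its difference of -0.38 ± 0.39 (SE; limma adjusted p = 0.656) rested on knockout-labelled array 5, and without that array it was 0.18. On knockout-labelled array 5 its signal did not exceed the control level of 153.6. Erg, on 1425370_a_at, did not exceed the control level on any array (49.7 to 140), so these arrays give only a bound for it in both groups.

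Mecom, Mllt3 and Etv6 were not called either. Mllt3, on 1431890_a_at, read 307, 317 and 401 on knockout-labelled arrays 5, 7 and 8, against 575, 703 and 491 on wild-type arrays 5, 7 and 8. The groups did not overlap, as for 12.1% of all tested probe sets with the knockout-labelled arrays lower. The Mllt3 difference, -0.75 ± 0.24 (SE), was close to that of Mycn, but with the larger error it did not pass (limma adjusted p = 0.09997, and 0.0847 to 0.331 over the alternatives run). Mecom, on 1422295_at, read 166, 214 and 146 on knockout-labelled arrays 5, 7 and 8, against 294, 357 and 156 on wild-type arrays 5, 7 and 8. Wild-type array 8 lay among the knockout-labelled values, and the difference was -0.52 ± 0.34 (SE; limma adjusted p = 0.439). This probe set exceeded the control level on 3 arrays of each group, on knockout-labelled array 5 only narrowly (166 against 153.6). The size of its difference is therefore uncertain. The other Mecom probe set, 1423011_at, did not exceed the control level on any array. Etv6, on 1423401_at, read 394, 362 and 235 on knockout-labelled arrays 5, 7 and 8, against 306, 196 and 376 on wild-type arrays 5, 7 and 8. These groups were interleaved, with a difference of 0.18 ± 0.30 (SE; limma adjusted p = 0.808) that turned to -0.07 without wild-type array 7.

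If the sample numbers 5, 7 and 8 pair the arrays, which the titles do not state, the difference can be read within each number. For Hlf 1434735_at it was -1.17, -1.02 and -1.59 for numbers 5, 7 and 8. For Ndn 1435382_at it was -2.39, -2.17 and -1.95, and for Mycn 1417155_at it was -0.99, -0.57 and -0.70. All 3 numbers gave the same sign for these genes. For Mllt3 the values were -0.87, -1.11 and -0.28, and for Mecom 1422295_at they were -0.77, -0.69 and -0.09, with number 8 giving the smallest in both. For Etv6 they were 0.35, 0.83 and -0.64, with number 8 opposite in sign to the rest.

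**Figure D3:**
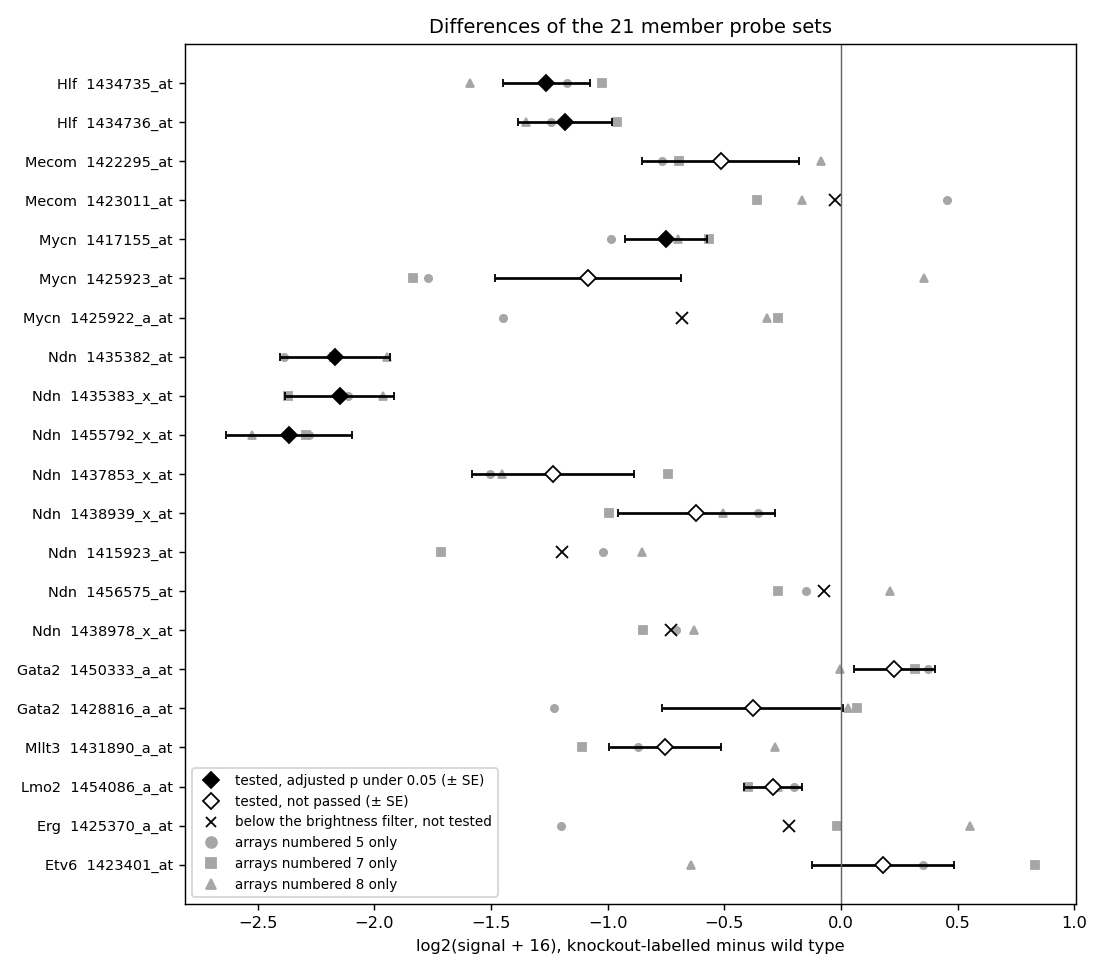
Difference in log2(signal + 16), knockout-labelled minus wild type (x axis), for each of the 21 member probe sets (y axis). Diamonds with bars are limma estimates ± SE, filled where the adjusted p was under 0.05, crosses are the plain differences of the 6 probe sets not tested, and grey shapes are the differences within sample numbers 5, 7 and 8. The 6 filled diamonds, 2 of Hlf, 1 of Mycn and 3 of Ndn, all lie below -0.7.

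Other regulators of the network were read from lists drawn up from general knowledge, with each gene represented by its brightest probe set. These lists were chosen with earlier results of these data known, so their counts and medians are descriptive and no independent test. Of the 7 heptad genes 6 were tested, and 0 were called in either direction (1 lower and 0 higher at an unadjusted p under 0.05 in limma), with a median difference of -0.14. Runx1, a core binding factor, averaged 2461 ± 778 in knockout-labelled cells and 3294 ± 389 in wild-type cells (SD, n = 3 each), a difference of -0.46 ± 0.22 (SE; limma adjusted p = 0.277). Tal1, a basic helix-loop-helix factor that binds DNA beside Lmo2, stood at -0.22 ± 0.22, Lyl1, its close relative, at -0.07 ± 0.18, and Fli1, an ETS factor related to Erg, at 0.19 ± 0.26 (SE). None of these 4 passed the test.

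The list of stem and progenitor regulators had 25 tested genes, 4 of which (Fli1, Lyl1, Runx1 and Tal1) are also heptad genes. Of the 25, 1 fell and 0 rose, where 2.19% of all tested probe sets were called lower. The difference lay below 0 for 22 with a median of -0.34, or for 19 of 21 with a median of -0.36 without the heptad genes, and 51.1% of all tested probe sets lay below 0. The one that fell was Egr1, a zinc finger factor that responds quickly to stimuli and is linked to stem cell quiescence. It read 13448, 7408 and 7033 on knockout-labelled arrays 5, 7 and 8, against 18879, 22778 and 16707 on wild-type arrays 5, 7 and 8, a fall of 1.12 ± 0.22 (SE; limma adjusted p = 0.0142). Egr1 did not pass when knockout-labelled array 7 (adjusted p = 0.0614), knockout-labelled array 8 (0.0923) or wild-type array 7 (0.0737) was left out, when all probe sets were tested (0.0669) or when eBayes was run without trend (0.0717). With the sample number as a block 3 of the 25 were called lower, against 3.53% of all tested probe sets. Hoxa9, a homeobox factor of stem cells and progenitors, stood at -0.50 ± 0.13 (SE; limma adjusted p = 0.0594, blocked 0.0295), and Foxo3, a forkhead factor of quiescent stem cells, at -0.85 ± 0.24 (SE; limma adjusted p = 0.0630, blocked 0.0485).

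Relatives and partners of the members were mostly not called. Of 36 tested genes of that list, 5 of which are also on the lists above, 1 fell and 0 rose, a share near the 2.19% of all tested probe sets called lower. The difference lay below 0 for 22 and the median was -0.05. The one that fell was Ets1, an ETS factor related to Erg and active in lymphoid cells. It read 265, 335 and 349 on knockout-labelled arrays 5, 7 and 8, against 809, 736 and 677 on wild-type arrays 5, 7 and 8. The groups lay far apart, and the difference was -1.19 ± 0.22 (SE; limma adjusted p = 0.0120, and 0.0553 without wild-type array 7). With the sample number as a block a second ETS factor, Elf1, was called, at -0.65 ± 0.20 (SE; limma adjusted p = 0.0873, blocked 0.0390).

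**Figure D4:**
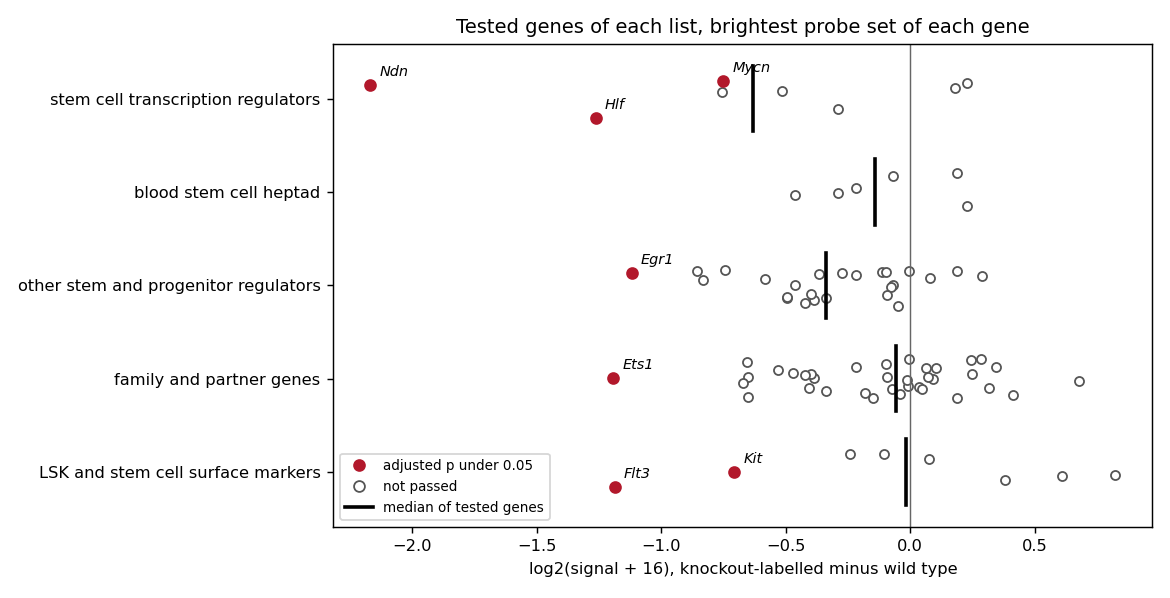
Difference in log2(signal + 16), knockout-labelled minus wild type (x axis), of the tested genes of 5 lists (y axis), 1 point a gene in each list that holds it. Red points passed an adjusted p of 0.05 and are named, open points did not, and black bars are the median of the tested genes. Ndn, Hlf and Mycn are the red points among the members, and the heptad has none.

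Genes whose signals ran most like those of the 3 fallen members were found among 8231 named genes by the mean absolute difference of log2 signals over the 6 arrays, each profile centred on its own mean. Nearest to Hlf were Zcchc18 (mean absolute difference 0.0815), Sesn3, a stress-responsive sestrin (0.0965), and Dnajb4, a heat shock co-chaperone (0.111). Nearest to Ndn were Gem, a small GTPase (0.233), Il7r, the interleukin-7 receptor (0.236), and Ccl3, a chemokine (0.275). Nearest to Mycn were Eef2k, a kinase of translation elongation (0.0454), Pnpla8, a phospholipase (0.0595), and Trim13, a ubiquitin ligase (0.0669). Of these neighbours of Mycn, Pnpla8 was called lower (limma adjusted p = 0.0241), while Eef2k (0.131) and Trim13 (0.0727) were not called. The difference between the groups makes up most of each profile, so genes with a like fall come out as near.

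Some markers of the sorted cells and of other cell types were called in the same arrays. Over all tested probe sets 2.19% were called lower and 1.44% higher. Of 8 tested surface markers of LSK and stem cells 2 fell, Kit by 0.71 ± 0.17 (SE; limma adjusted p = 0.0381) and Flt3 by 1.19 ± 0.19 (SE; limma adjusted p = 0.00515), and 0 rose. This list was split, with 4 differences below 0 and 4 above and a median of -0.02. At an unadjusted p under 0.05 in limma, 2 of these markers were lower and 2 higher. Ly6a, which encodes Sca-1, was not analysed here. Summed signals of a list are given below, but the brightest probe sets of the list dominate a sum, and it does not measure cell numbers. The neutrophil list had 8 tested markers, of which 5 fell (Ngp, Camp, Ltf, S100a8 and S100a9) and 0 rose. Its summed signal was 5008 to 12913 on knockout-labelled arrays, against 20185 to 41360 on wild-type arrays. The monocyte and macrophage list had 6, of which 3 rose (Ccr2, Csf1r and Ms4a6c) and 0 fell, with summed signals of 18396 to 20542 on knockout-labelled arrays, against 11572 to 12033 on wild-type arrays. Of the 4 for mast cells and basophils 1 rose (Hdc) and 0 fell, with sums of 5761 to 8311 on knockout-labelled arrays, against 2915 to 5448 on wild-type arrays. In limma 0 of 6 B cell and plasma cell, 2 T and NK cell, 5 erythroid, 3 megakaryocyte and 5 stromal and endothelial markers were called (unadjusted p under 0.05 for 2, 1, 1, 1 and 0 of them). The B cell and plasma cell list summed to 27842 to 42481 on knockout-labelled arrays, against 25129 to 34465 on wild-type arrays. These sums overlapped, and of its 6 tested genes 4 lay below 0 and 2 above, with a median of -0.11. In this list 1 of the 9 measured genes, Pax5, did not exceed the control level on any array. The T and NK cell list summed to 2957 to 3453 on knockout-labelled arrays, against 2463 to 2500 on wild-type arrays, and 1 of its 6 measured genes, Cd4, did not exceed that level. The erythroid list summed to 6150 to 7965 on knockout-labelled arrays, against 7704 to 10323 on wild-type arrays. The sums of the megakaryocyte list (2150 to 4129 on knockout-labelled arrays, against 1984 to 4112 on wild-type arrays) and of the stromal and endothelial list (1772 to 2415 on knockout-labelled arrays, against 1810 to 2682 on wild-type arrays) overlapped. With the sample number as a block 7 neutrophil markers were called lower, against 3.53% of all tested probe sets. In that fit 3 further markers passed that do not without the block, Thy1 (0.82 ± 0.24 SE, blocked limma adjusted p = 0.0431), the mast cell protease gene Cpa3 (0.76 ± 0.21 SE, 0.0437) and the plasma cell marker Sdc1 (-0.87 ± 0.34 SE, 0.0444). The part of these shifts in the falls of Hlf, Ndn and Mycn was not tested.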

How the data were processed

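Per the labels' protocols, sorted LSK cells gave 10 ng of total RNA a sample, which was amplified in 2 rounds and labelled with biotin as cRNA. The deposited values are intensity values, 1 linear MAS5 signal per probe set and array, per the submitters' processing notes. The MAS5 version, its settings and detection calls are stated nowhere in the sources used here. The deposited table held 22690 probe sets. The 64 AFFX controls were left out, and 20380 of the remaining 22626 had 1 gene symbol in the platform annotation, which can be old.

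Signals were converted to log2(signal + 16), without another normalization between arrays. Testing covered the brightest 60% by mean log2 value (13575) and used limma 3.58.1 in R 4.3.3 (lmFit, then eBayes with trend, two-sided, Benjamini-Hochberg over all tested probe sets, threshold 0.05), and the procedure was first tested on simulated data. Precision is limited by the number of arrays. The added 16 shrinks differences of dim probe sets. The text names every member probe set, the heptad genes, genes of the regulator and partner lists called with or without the block, and the 3 nearest profiles of Hlf, Ndn and Mycn. Marker lists of other cell types are given as counts and sums, with the called genes named after their values were seen. The members and lists were chosen with earlier results of these data known.

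The sample numbers were taken from the sample titles. Each array's deviations from its group mean had correlations of 0.159, 0.168 and 0.238 between arrays sharing number 5, 7 and 8. Between other knockout and wild-type arrays they were -0.134 to -0.0307. Deviations within a group cancel out, so the negative values follow largely from the positive ones and add little. The titles do not say what the numbers stand for. They were treated as pairing the samples only in the alternative fit with a block and in the differences within a number.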

Additional observations from a re-analysis of the deposited data

How the results depend on the processing

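The 6 member probe sets called lower were between 5 and 7 under every alternative run over all members (other pseudocounts, brightness filters, normalizations, eBayes without trend, the sample number as a block, and each array left out), and 0 were called higher under each. Leaving out probe sets named _x_at, a choice made after the values were known, left 4 calls of 11 tested. The 5 calls of Hlf and Ndn passed in all 15 of these alternatives. With the sample number as a block, or pairing, 7 members were called, and besides 1437853_x_at of Ndn no member's call changed. Differences that were not called changed sign without 1 array for Gata2 1428816_a_at (-0.68 to 0.18, the highest without knockout-labelled array 5) and Etv6 (-0.0672 to 0.40, the lowest without wild-type array 7), and Gfi1 was called at 1.10 (limma adjusted p = 0.0354) without knockout-labelled array 5. Over the whole array the 297 lower and 196 higher calls became 119 and 69 without the brightness filter, 124 and 57 with eBayes without trend and 479 and 320 with the replicate block, while median centring left 193 lower. With 1 array left out they ran from 90 to 282 lower and from 34 to 266 higher, and leaving out an array also lowers the power. The 1 lower call among stem and progenitor regulators became 0 to 3, and that among relatives and partners 0 to 2. The cause of these shifts was not tested. No depth can be given for arrays, and signals near the control level (100.2 to 162) limit what can be said of Erg, Mecom 1423011_at and Mycn 1425922_a_at.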
